A study of Mus musculus with 7 samples.

Results

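The genes described here are 10 genes of the intracellular part of the Wnt pathway, 10 of the 21911 protein-coding genes of GENCODE M21 on the main chromosomes of GRCm38. They were taken by name, for their place in the pathway, with earlier results of these data known: Ctnnb1, Apc and Axin1 of the cytoplasmic machinery, the transcription factor genes Lef1, Tcf7, Tcf7l1 and Tcf7l2, and the feedback and target genes Axin2, Nkd1 and Sp5. The study searched for 129P2 alleles that act together with Cdkn2ab loss in skin tumours, and profiled H3K27ac, the acetyl mark of active promoters and enhancers, in tumour cell clones. All 3 clones carried the Cdkn2ab deletion on an FVB/129P2 backcross background, so none had an intact locus and the lists describe a single condition. The deletion removes p15Ink4b, p16Ink4a and p19Arf. Each clone was grown from skin tumour cells that formed a colony in soft agar, and was then kept as an adherent culture, so each list describes 1 selected cell line. The series holds 7 libraries, of which 4 are H3K27ac (1 each of clones 1 and 2, and 2 of clone 3 that were called as 1 list) and 3 are IgG controls (1 of clone 1 and 2 of clone 3). Which control the list of clone 2 was called against is not given in the sources used here.

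In resting cells a complex built on Apc and Axin1 marks β-catenin, the product of Ctnnb1, for destruction. When a Wnt ligand binds its receptors the complex is held at the membrane, β-catenin builds up and enters the nucleus, and there it joins DNA-bound proteins of the TCF/LEF family. Lef1 and Tcf7 encode family members that are best known as activators with β-catenin, whereas Tcf7l1 (TCF3) is best known as a repressor that keeps Wnt targets and hair follicle differentiation genes low, and Tcf7l2 (TCF4) can do either. Axin2, Nkd1 and Sp5 are switched on by the pathway in many tissues and restrain it. In skin, LEF1 marks the hair germ, the hair matrix and the dermal papilla, and Tcf7l1 and Tcf7l2 are expressed in hair follicle stem cells.

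A peak was counted as a promoter peak when it lay within 1 kb of an annotated start of the gene, as a body peak when it lay elsewhere in the gene, and as a distal peak when it lay within 100 kb of a start, outside the gene and not within 1 kb of the start of another gene. The height of a peak is its fold enrichment, the ChIP pileup at the summit over the local background, each plus 1. For this ratio the pileup is scaled to the control, by 0.424, 0.428 and 0.308 in clones 1, 2 and 3, as solved from the lists. ChIP reads are given below without this scaling, and local background is given in control reads. The lists held 29182, 49587 and 29277 peaks in clones 1, 2 and 3, with a median fold enrichment of 7.70, 7.14 and 5.38. The median summit rested on 37, 34 and 53 ChIP reads. No listed summit had fewer than 13, 12 and 25 reads, so weaker acetylation than that was not detectable, and a gene without a peak is not shown to lack the mark. Clone 2 had by far the longest list, and every count below should be read against the share of all genes in the same list. As a check of what the cells are, promoter peaks were counted at markers of the cell types that a skin tumour can hold. Over all genes 49.8%, 56.9% and 48.1% had a promoter peak in clones 1, 2 and 3, and the marker counts were not tested against these shares. Of 8 keratinocyte genes 2, 3 and 1 had one. Perp was marked in all clones (7.91-fold, 33.3-fold and 7.33-fold), Krt14 in clone 1 alone (9.89-fold), Krt15 and Sfn in clone 2 alone (9.80-fold and 6.32-fold), and Krt5, Trp63, Dsg3 and Itgb4 in none. The counts were 2, 3 and 2 of 6 hair follicle genes (Sox9 the highest by mean percentile of fold, Msx2, Hoxc13 and Edar with none). Of 8 fibroblast and dermal papilla genes 5, 5 and 3 had one, with none at Dcn and Lum. Pdgfra was the highest of them by mean percentile over the clones with a peak, but had none in clone 3. Twist2 and Prrx1 had one in every clone, and Twist2 was the highest in clone 3 (8.15-fold). The counts were 0, 0 and 1 of 3 endothelial genes (Pecam1 and Cdh5 with none) and 1, 1 and 1 of 4 melanocyte genes (Tyr, Dct and Mlana with none). The endothelial gene was Tek, in clone 3 (3.95-fold). The melanocyte gene was Pmel, in every clone (24.2-fold, 42.9-fold and 6.92-fold). Its mean percentile of 52.3 was above the 48.3 of Pdgfra. Of the genes that define basal keratinocytes, Krt5 and Trp63 thus had no promoter peak in these cultured clones, while Krt14 had one in a single clone.

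The sequences that bear on the contrasts below are the 200 bases before the start of Lef1, Tcf7l1 and Tcf7l2, of which the first had no promoter peak and the others had one in every clone, the same stretch of the 3 feedback genes, and 200 bases around the summit of 2 distal regions, the sole region near Lef1 and the one of Tcf7 with the most reads. They are bases of the GRCm38.p6 reference (C57BL/6J), not of the FVB/129P2 cells. Upstream stretches lie before whichever of GENCODE and RefSeq starts further out and run along the strand of the gene, whereas distal stretches are given on the plus strand. Capitals mark the TCF/LEF core motif, searched as CTTTGAT or CTTTGAA on both strands.
Lef1 upstream, chr3:131110097-131110296, plus strand: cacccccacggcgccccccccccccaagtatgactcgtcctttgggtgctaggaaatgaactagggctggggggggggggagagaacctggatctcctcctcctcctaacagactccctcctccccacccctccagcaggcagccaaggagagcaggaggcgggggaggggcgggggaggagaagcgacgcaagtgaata
Tcf7l1 upstream, chr6:72789255-72789454, minus strand: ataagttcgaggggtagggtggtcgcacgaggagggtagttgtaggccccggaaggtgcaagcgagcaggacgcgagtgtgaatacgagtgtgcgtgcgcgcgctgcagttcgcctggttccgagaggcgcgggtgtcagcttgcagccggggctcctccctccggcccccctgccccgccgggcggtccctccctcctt
Tcf7l2 upstream, chr19:55741610-55741809, plus strand: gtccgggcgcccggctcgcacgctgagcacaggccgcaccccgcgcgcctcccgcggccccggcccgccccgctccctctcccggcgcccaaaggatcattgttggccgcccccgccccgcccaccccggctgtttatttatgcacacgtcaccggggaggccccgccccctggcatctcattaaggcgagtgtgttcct
Axin2 upstream, chr11:108920149-108920348, plus strand: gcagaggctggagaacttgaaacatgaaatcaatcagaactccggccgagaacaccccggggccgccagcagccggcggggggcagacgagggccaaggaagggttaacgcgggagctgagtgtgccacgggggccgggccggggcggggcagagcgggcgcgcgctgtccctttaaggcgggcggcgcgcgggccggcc
Nkd1 upstream, chr8:88521154-88521353, plus strand: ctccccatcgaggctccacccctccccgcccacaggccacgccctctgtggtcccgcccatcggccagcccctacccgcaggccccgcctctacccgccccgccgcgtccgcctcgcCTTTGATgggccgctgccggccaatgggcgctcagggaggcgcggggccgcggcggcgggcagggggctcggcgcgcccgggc
Sp5 upstream, chr2:70474723-70474922, plus strand: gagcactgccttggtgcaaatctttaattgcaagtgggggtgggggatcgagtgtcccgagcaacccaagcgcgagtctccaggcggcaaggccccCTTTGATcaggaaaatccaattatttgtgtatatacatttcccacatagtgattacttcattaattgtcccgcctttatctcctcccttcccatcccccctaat
Lef1 distal, chr3:131084845-131085044, plus strand: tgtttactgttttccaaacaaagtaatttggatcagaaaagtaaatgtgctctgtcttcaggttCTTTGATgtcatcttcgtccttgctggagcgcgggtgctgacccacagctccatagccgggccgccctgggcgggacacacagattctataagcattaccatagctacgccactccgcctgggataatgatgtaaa
Tcf7 distal, chr11:52333574-52333773, plus strand: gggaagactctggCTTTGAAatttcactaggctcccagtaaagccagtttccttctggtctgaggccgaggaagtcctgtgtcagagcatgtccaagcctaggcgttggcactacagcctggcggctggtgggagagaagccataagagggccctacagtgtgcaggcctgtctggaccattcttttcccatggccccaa
The core motif was found once each before Nkd1 and Sp5 and before none of the other 8 genes, and 5.83% of 21905 genes have it in this stretch. It was also found once in each of the distal stretches of Lef1 and Tcf7 shown. The same stretch of the other distal regions listed in all 3 clones, which are not shown, held none. These are the farther region of Tcf7 (-58.5 kb), those of Tcf7l2 (-98.2 and 250.1 kb) and that of Nkd1 (83.6 kb). The upstream stretch shown for Lef1 lies within an exon of Gm43352, a non-coding gene on the opposite strand. CpG dinucleotides numbered 23 before Axin2, 21 before Tcf7l1, 24 before Tcf7l2 and 26 before Nkd1, against 7 before Lef1, 6 before Sp5 and a median of 7 over all genes. The other genes had 29 (Tcf7), 16 (Apc), 16 (Axin1) and 3 (Ctnnb1). Genes with a promoter peak in all 3 clones had a median of 13 CpG in this stretch and those with a peak in no clone had 2. Ctnnb1, with the fewest CpG of the 10 genes before its outermost start, nevertheless had a promoter peak in every clone, at starts further inside.

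Promoter peaks were listed at 7, 9 and 7 of the 10 genes in clones 1, 2 and 3, where 49.8%, 56.9% and 48.1% of all genes had one. The same 7 genes (Ctnnb1, Apc, Axin1, Axin2, Tcf7, Tcf7l1 and Tcf7l2) had one in all 3 clones, where 46.5% of all genes did. Lef1 had none in any clone, as did 42.6% of all genes. Nkd1 and Sp5 had one in clone 2 alone, a pattern of 6.15% of all genes. These shares describe a chosen list, and with 3 clones of 1 condition no test between groups of samples was possible. Among genes with a promoter peak, the median fold enrichment of the strongest one was 21.7, 45.9 and 10.5 over the listed genes of clones 1, 2 and 3, against 18.8, 39.2 and 8.28 over all genes.

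**Figure D1:**
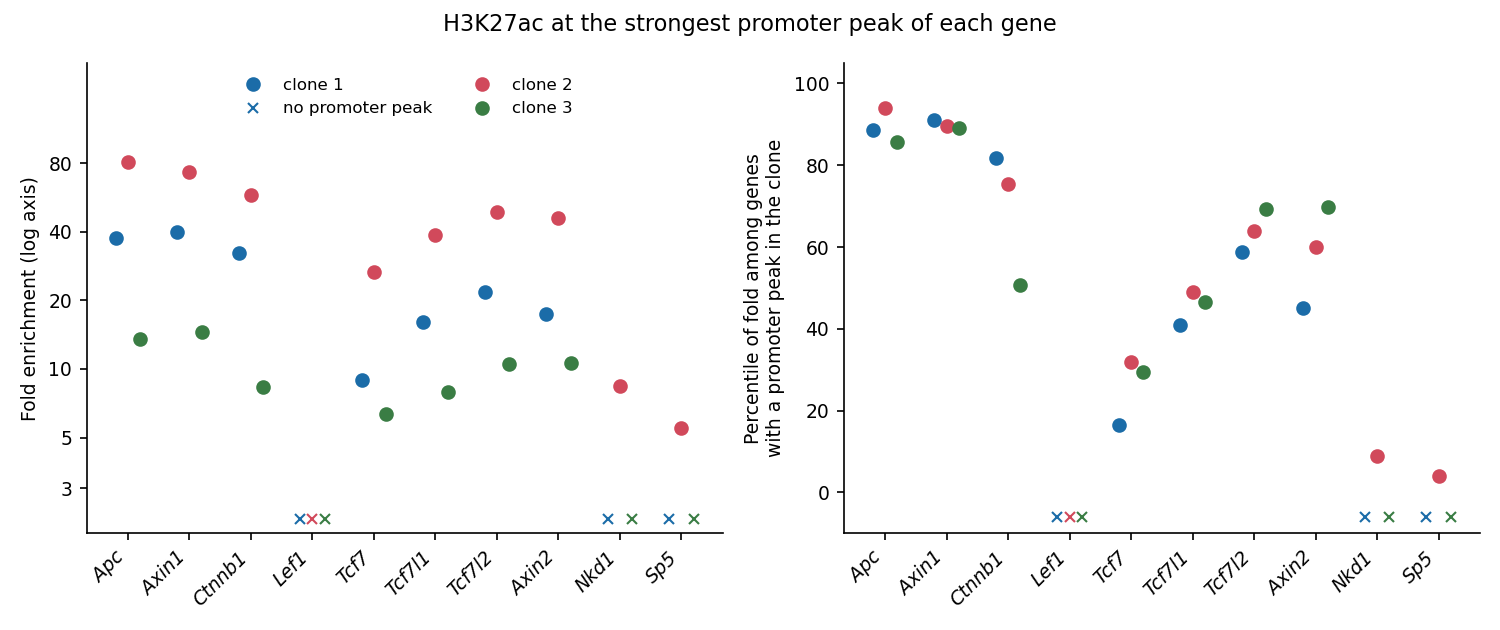
Strongest promoter peak of each of the 10 genes in the 3 clones (colours), as fold enrichment on a log axis on the left and as the percentile of that value among all genes with a promoter peak in the same clone on the right. Crosses at the bottom mark clones without a promoter peak, which are all 3 clones for Lef1 and clones 1 and 3 for Nkd1 and Sp5. Apc and Axin1 sit at the top and Tcf7 is the lowest of the 7 genes marked in every clone.

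Among the genes that restrain or carry β-catenin, Axin1 and Apc had the highest promoter peaks. Axin1 (chr17:26138688-26195811, plus strand), which encodes the scaffold of the destruction complex, reached 40.0-fold, 73.5-fold and 14.6-fold in clones 1, 2 and 3, from 173, 341 and 117 ChIP reads. These heights lay at the 91.1, 89.7 and 89.1 percentile of the genes with a promoter peak, a mean of 90.0 ± 1.06 (SD, n = 3 clones). The rank of Axin1 thus varied little among clones although its fold enrichment did not stay level. Its main peak covered the outermost start, and clone 2 listed 2 more promoter peaks, at inner starts, with 43 and 45 reads. Clone 3 listed a smaller peak just upstream of the main one, with 53 reads.

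Apc (chr18:34220924-34322552, plus strand), which encodes the tumour suppressor that holds β-catenin in the complex, had a peak of 37.5-fold, 81.1-fold and 13.6-fold at its outermost start, from 156, 344 and 129 reads, with a mean percentile of 89.4 ± 4.33 (SD, n = 3 clones). It was the sole gene of the 10 with a separate promoter peak at an inner start in all 3 clones. That second peak lay about 27 kb inside the gene (26.9 kb from the outermost start in clone 1 and 26.5 kb in clone 2) and was lower, 7.46-fold, 8.92-fold and 7.57-fold. No body peak of Apc was listed, and its 1 distal peak per clone, with 18, 14 and 31 reads, was weak. The length of sequence under its peaks was the most even of the 10 genes, 2524, 2722 and 2521 bp.

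Ctnnb1 (chr9:120929216-120960507, plus strand), the β-catenin gene, had 1 promoter peak in each clone, of 32.2-fold, 57.9-fold and 8.35-fold, from 142, 261 and 78 reads. The summits lay 4.46, 4.43 and 4.46 kb inside the outermost GENCODE start, at the starts of other transcripts. Its percentile was 81.7 and 75.3 in clones 1 and 2 and 50.8 in clone 3, so its rank was lower in clone 3 than in the other clones. Clone 3 had neither a body nor a distal peak of Ctnnb1. Clones 1 and 2 had 2 and 6 distal peaks, and those near 72 kb (72.2 kb from the outermost start in both) overlapped.

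The family members compared with each other here are Lef1 and Tcf7 on one side and Tcf7l1 and Tcf7l2 on the other. Lef1 (chr3:131110471-131224356, plus strand) had the least acetylation of these, with no promoter peak and no body peak in any clone. Of the 5 annotated starts of Lef1, the peak closest to any lay 158 kb away in clone 1, 25.0 kb away in clone 2 and 24.9 kb away in clone 3. In clones 2 and 3 that was the same region, centred at -25.5 and -25.3 kb, upstream of the gene, with 4.64-fold (41 reads) and 6.92-fold (60 reads) enrichment. It is the stretch shown above with 1 core motif. Clone 1 listed no peak there. Widening the promoter to 2.5 kb gave Lef1 no promoter peak either.

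Tcf7 (chr11:52252371-52283014, minus strand), which encodes TCF1, had a promoter peak in each clone, of 8.97-fold, 26.6-fold and 6.33-fold, from 40, 122 and 60 reads. Its percentiles of 16.6, 31.8 and 29.5 were the lowest of the 7 genes marked in all clones. The peak was also narrow in clones 1 and 3, 552 and 313 bp, against 1070 bp in clone 2. Body peaks set the clones apart, with 1 in clone 1, 7 in clone 2 and 0 in clone 3. In clone 2 these, the promoter peak and a peak just past the end of the gene joined into a domain of 9 peaks over chr11:52251972-52283658, the whole gene, with 5818 bp under peaks. The starts of 2 non-coding genes, A630014C17Rik and Gm26551, lie in that domain, and their part in it was not tested. Upstream of Tcf7, 2 distal regions were listed in all 3 clones. At the nearer of them the summits lay at -50.6, -50.7 and -50.6 kb, with 30, 110 and 37 reads. At the farther they lay at -58.5, -58.5 and -57.9 kb, with 20, 72 and 40 reads.

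Tcf7l1 (chr6:72626378-72789254, minus strand) had a promoter peak of 16.0-fold, 38.6-fold and 7.94-fold, from 73, 182 and 68 reads, at the 41.0, 49.1 and 46.6 percentile. It carried the most body peaks of the 10 genes in clones 2 and 3, 13 and 4, and had 5 in clone 1. Of its body regions 2 were listed in all clones. The first lay about 129 kb from the start, inside the gene. The other lay near 77 kb (summits at 77.5, 77.4 and 77.5 kb), where the enrichment was 6.41-fold, 11.3-fold and 8.30-fold. The promoter peak and these body peaks lay too far apart to be joined, so the largest joined domain of Tcf7l1 was inside the gene and without its promoter in every clone.

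Tcf7l2 (chr19:55741820-55933654, plus strand), which encodes the main partner of β-catenin in gut epithelium, had the broadest promoter acetylation of the 10 genes. Its promoter peaks covered 3512, 3767 and 2801 bp in clones 1, 2 and 3, with a summit of 21.7-fold, 48.7-fold and 10.5-fold from 118, 273 and 93 reads. The block was listed as 1 peak in clones 1 and 2 and as 3 peaks in clone 3. Body peaks numbered 9, 5 and 1, and the sole body region shared by all clones lay near 134 kb (134, 134 and 135 kb), with 41, 25 and 31 reads. Distal regions at -98.1, -98.2 and -98.2 kb and, beyond the end of the gene, at 250.3, 250.1 and 250.3 kb from the outermost start were listed in every clone. The upstream one had 29, 67 and 44 reads and the other 25, 75 and 37.

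**Figure D2:**
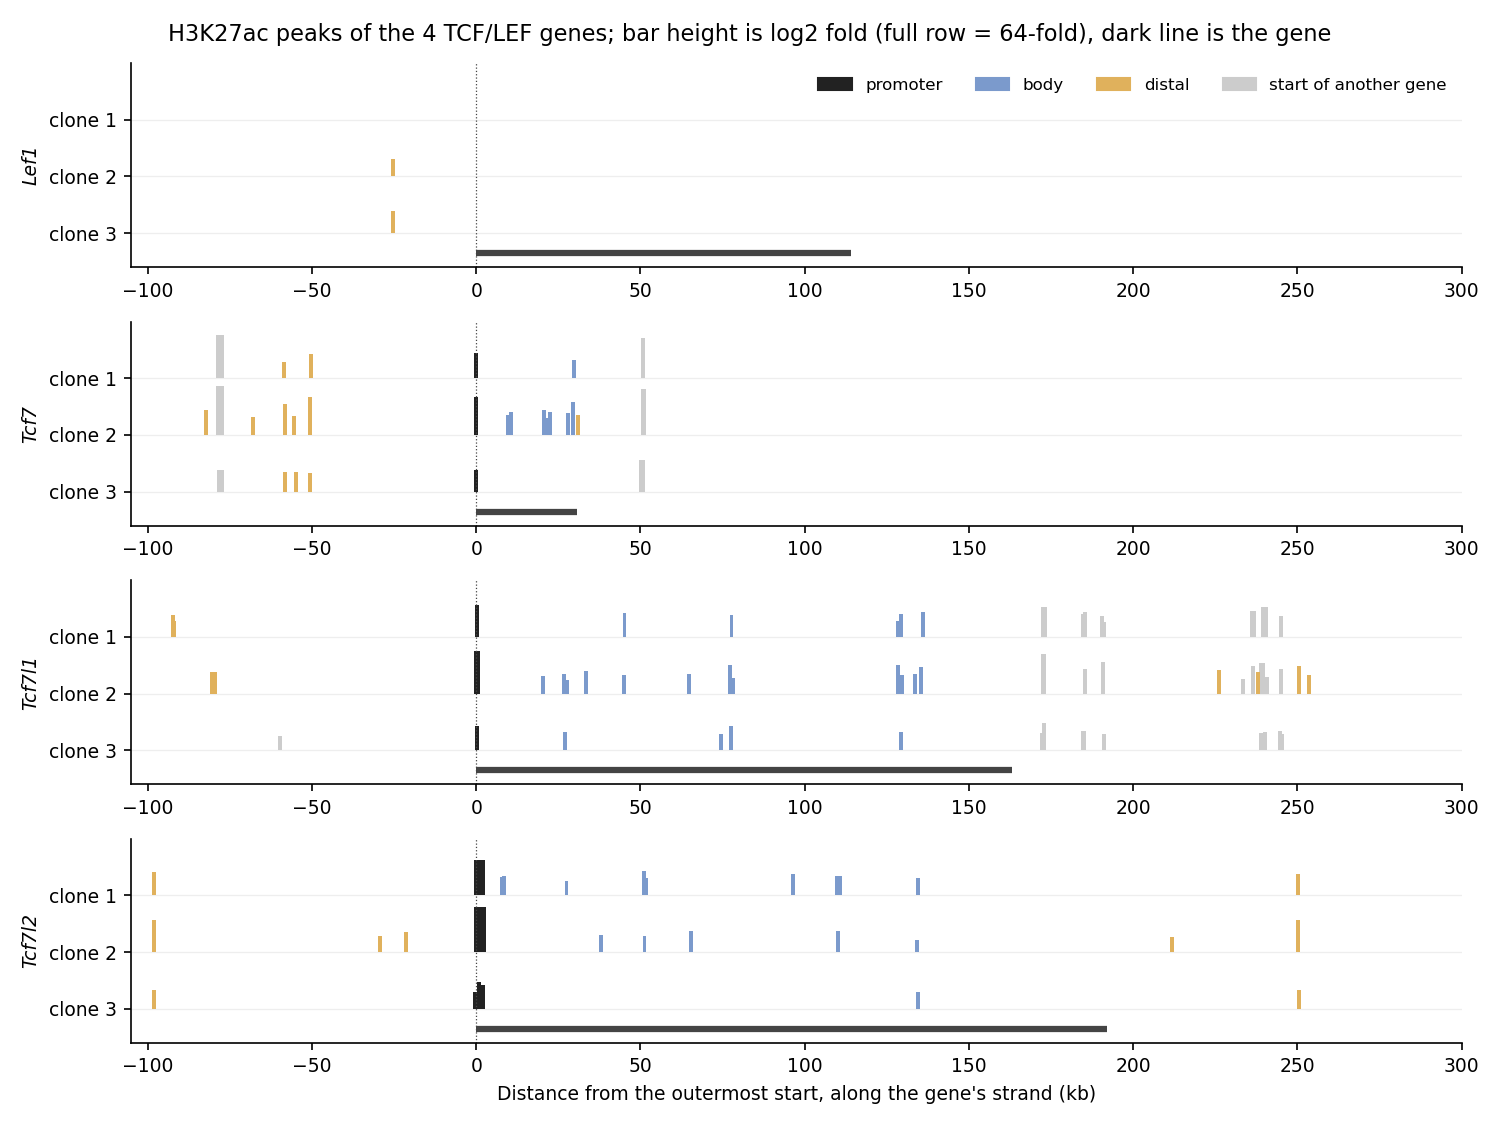
Peaks around Lef1, Tcf7, Tcf7l1 and Tcf7l2 by distance from the outermost start along the strand of the gene (kb), with a row for each clone. Bar height is log2 fold enrichment, narrow peaks are widened so that they can be seen, colours give the peak class (grey for peaks at starts of other genes, not counted) and the dark line is the gene. Lef1 has 1 distal bar in clones 2 and 3 and no bar in clone 1, whereas bars run along the bodies of Tcf7l1 and Tcf7l2.

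Side by side, Tcf7l1 and Tcf7l2 had more sequence under peaks than Lef1 and Tcf7, at promoters and elsewhere. Sequence under promoter peaks averaged 276, 535 and 156 bp over Lef1 and Tcf7 in clones 1, 2 and 3 and 2337, 2842 and 1762 bp over Tcf7l1 and Tcf7l2, a difference of 1991 ± 356 bp (SD, n = 3 clones). Over promoter, body and distal peaks together the averages were 867, 4994 and 1782 bp for Lef1 and Tcf7 and 6683, 10076 and 4327 bp for Tcf7l1 and Tcf7l2. That difference was 4481 ± 1716 bp (SD, n = 3 clones), was in the same direction in 3 of 3 clones and was larger than the spread between clones. Promoters held 2061 of 5816 bp of it in clone 1, 2307 of 5082 bp in clone 2 and 1606 of 2546 bp in clone 3, so most of it lay outside promoters in clones 1 and 2 and at promoters in clone 3. Tcf7l1 and Tcf7l2 are longer genes, however, searched over windows of 359 and 357 kb against 214 and 200.4 kb for Lef1 and Tcf7. The windows reach 100 kb beyond the annotated starts, so they also depend on where the inner starts lie. That of Lef1 stopped at the end of the gene, whereas those of Tcf7, Tcf7l1 and Tcf7l2 ran past it. Per 100 kb searched the difference was 1437, 335 and 331 bp, a mean of 701 ± 637 bp, which is close to the spread between clones. With 3 clones the smallest p-value that a two-sided exact test by sign changes can give is 0.25, so no difference between these genes can pass 0.05.

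Lef1 and Tcf7 did not behave as a pair. Lef1 held 0, 766 and 707 bp under peaks and Tcf7 held 1734, 9221 and 2856 bp. Tcf7l1 and Tcf7l2 had similar means over the 3 clones, 6919 and 7138 bp. In clones 1, 2 and 3 they held 4924, 11463 and 4371 bp against 8442, 8688 and 4283 bp. Per 100 kb searched, Tcf7 in clone 2 (4600.3 bp) exceeded Tcf7l1 (3193 bp) and Tcf7l2 (2435 bp), and in clone 3 Tcf7 (1425 bp) did so as well (1218 and 1201 bp). In clone 1 it was lower than both, 865 bp against 1372 and 2366 bp. Without Lef1 the order of the TCF genes per length therefore changed with the clone, whereas Lef1 was the lowest of the 4 in every clone. In height at the promoter the order was Tcf7l2, Tcf7l1, Tcf7 in each of the 3 clones.

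**Figure D3:**
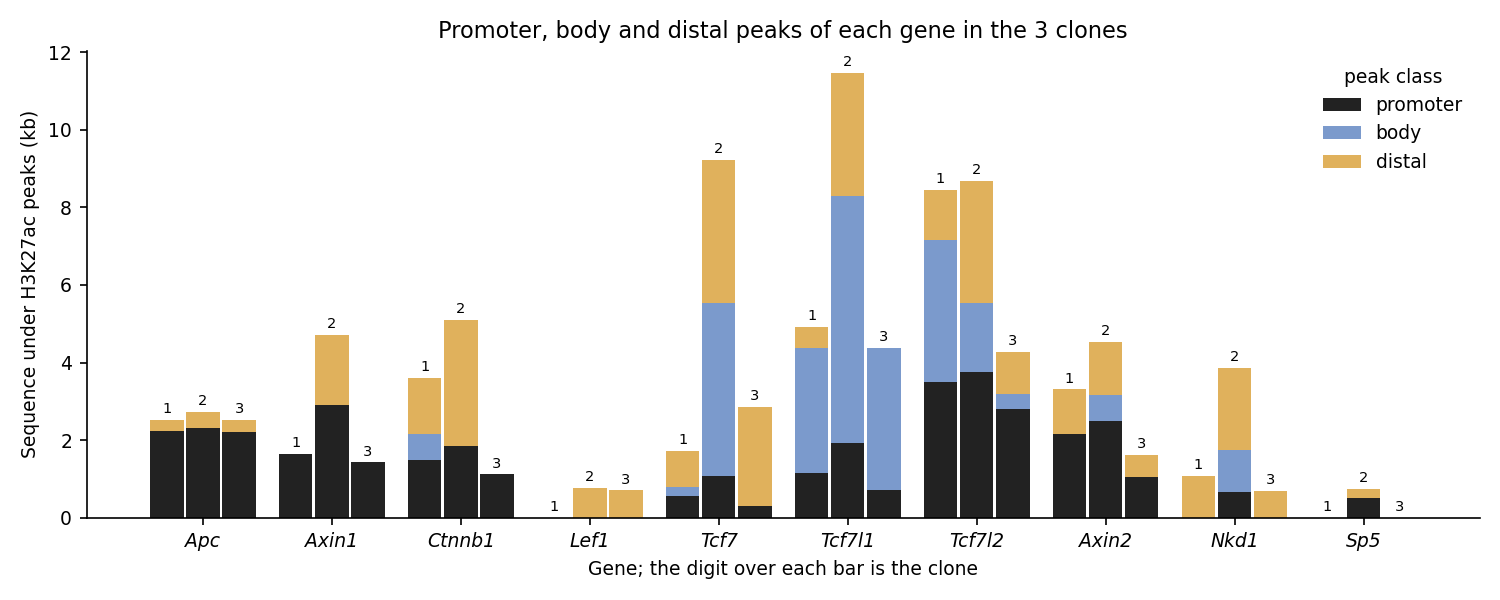
Length of sequence under promoter, body and distal peaks (kb, stacked) of each of the 10 genes. The 3 bars of a gene are clones 1, 2 and 3, as the digit over each says. Tcf7l1 in clone 2 is the tallest bar, with 11463 bp. Lef1 and Sp5 have the lowest means over clones, although in clone 3 Nkd1 (696 bp) is just below Lef1 (707 bp).

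Of the feedback genes, Axin2 alone was marked in every clone. Axin2 (chr11:108920349-108950783, plus strand), the inducible relative of Axin1 and a standard readout of the pathway, had a promoter peak of 17.4-fold, 45.9-fold and 10.6-fold, from 140, 384 and 100 reads. The 384 reads in clone 2 are the most of any of the 10 genes. Its percentile by fold was 45.1, 59.9 and 69.7. Fold is relative to the local background, which was 2.48, 2.61 and 2.00 reads at this summit against 0.855, 1.00 and 1.54 at that of Axin1. The peak was 2148, 2499 and 1042 bp wide. Distal regions at 60.5 kb and at 119.6 kb from the outermost start were shared by clones 1 and 2, and clone 3 had 1 distal peak at another place, at -33.5 kb.

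Nkd1 (chr8:88521354-88594884, plus strand), which encodes an inhibitor that binds Dishevelled, had a promoter peak in clone 2 of 8.42-fold from 37 reads, at the 8.88 percentile. In clones 1 and 3 the peak closest to a start lay 21.4 and 21.6 kb away. It was the distal region beyond the end of the gene, about 83 kb from the outermost start (83.1, 83.6 and 83.2 kb), which all 3 clones listed with 34, 41 and 63 reads. Its enrichment of 7.70-fold, 8.49-fold and 3.40-fold did not follow the reads, the local background in clone 3 being 5.00 reads. On chromosome 8 the local background at summits was 1.35, 1.40 and 1.43 times that of the other autosomes apart from chromosome 15, and the part of this in the Nkd1 values was not tested.

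Sp5 (chr2:70474923-70477729, plus strand), a Sp family transcription factor gene with 1 annotated start, had 1 promoter peak, and it ranked lowest by percentile of all those above, 5.49-fold from 49 reads in clone 2 at the 3.94 percentile. The peak began 20 bp inside the gene and did not cover the start. In clones 1 and 3 the closest peaks lay 187 and 33.8 kb from the start. Both of the genes marked in clone 2 alone also hold the core motif in the stretch shown above, as do 5.83% of all genes. The share was 4.19% of genes with a promoter peak in all 3 clones and 7.98% of those with one in no clone. A link between the motif and these peaks was not tested.

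How often promoter peaks of this strength are listed elsewhere was read from clone 2. Of 361 genes whose strongest promoter peak in clone 2 had 32 to 42 reads, as that of Nkd1 did, 24.9% had a promoter peak in clone 1 and 20.2% in clone 3, and 67.0% in neither. Of 297 genes with 44 to 54 reads, as for Sp5, the shares were 41.8%, 31.6% and 47.5%. Peaks of the strength seen at Nkd1 and Sp5 were thus often absent from the other lists, and no difference between clones was shown for these genes.

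Away from promoters the lists were compared in the same way. Body peaks were listed at 4, 5 and 2 of the 10 genes in clones 1, 2 and 3, against 15.1%, 27.1% and 16.5% of all genes. Distal peaks were listed at 7, 10 and 6 of them, against 47.0%, 63.9% and 51.3%. The genes are longer than most, with a median of 65.3 kb against 17.4 kb, which gives more room for body peaks. When the peaks of the clones were merged, 8 of 12 promoter regions were found in all 3 clones, as were 3 of 37 body regions and 5 of 44 distal regions (66.7%, 8.11% and 11.4%). Counted in the same way over all protein-coding genes, 61.2% of promoter, 13.2% of body and 12.4% of distal regions were found in all 3 clones, so the shares at these genes lay near those of the whole lists. Clone 2 alone accounted for 4 promoter, 18 body and 28 distal regions, clone 1 alone for 9 body and 4 distal regions and clone 3 alone for 1 and 2. Over all genes clone 2 alone accounted for 4885 of 18077 promoter, 16298 of 28703 body and 63767 of 105893 distal regions. The core motif was within 100 bases of the summit in 4 of 29, 7 of 69 and 3 of 14 peaks of these genes whose summits lay over 1 kb from any start, against 6.84%, 4.51% and 8.17% of all such peaks in clones 1, 2 and 3. An AP-1 motif, TGANTCA, was there in 2, 8 and 0 of them, against 5.87%, 7.15% and 7.08%. These counts are small, and the same region enters once for each clone that listed it.

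When neighbouring peaks were joined at the distance commonly used to stitch enhancers, the lists gave 14560, 18280 and 16371 domains, and each gene was assigned the domain over its promoter or body with the most bases under peaks. Such large domains are often read as clusters of enhancers at genes that set cell identity. None of the 10 genes had a domain among the top 5% in clone 1, 2 or 3, where 5.54%, 10.8% and 5.01% of all genes did. The highest was Tcf7 in clone 2, at the 93.2 percentile of all domains, but its domains in clones 1 and 3 were at 19.4 and 4.74. Tcf7l2 was the steadiest near the top, at 92.2, 87.7 and 86.9, a mean of 89.0 ± 2.86 (SD, n = 3 clones). Axin1 stood at 90.0 in clone 2, where its domain also holds starts of the neighbouring genes Mrpl28 and Tmem8, and at 63.1 and 58.8 in clones 1 and 3. The main domain of Apc holds the start of the pseudogene Gm10548. The median over the genes with a domain was 63.7, 78.9 and 52.0, against 65.9, 75.0 and 65.2 over all genes.

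Most genes of 2 further chosen lists of the intracellular pathway had a promoter peak. The shares of all genes were 49.8%, 56.9% and 48.1% in clones 1, 2 and 3, and 46.5% in all 3. Of 15 other genes of the destruction complex and the steps above it 14, 15 and 13 had a promoter peak in clones 1, 2 and 3, with 13 in all 3. By mean percentile of fold over the clones with a peak, the highest was Csnk1d, a casein kinase gene, with 67.0-fold, 104-fold and 20.5-fold. The lowest was Apc2, marked in clone 2 alone (6.28-fold). Of 17 nuclear partners of TCF and β-catenin 15, 17 and 14 had one, with 13 in all 3. By mean percentile Crebbp, which encodes a histone acetyltransferase, was the highest (51.9-fold, 80.6-fold and 20.1-fold) and Pygo1 the lowest, with 3.76-fold in clone 2 alone. By fold, Ep300 was higher than Crebbp in clones 1 and 2 (63.7-fold and 92.0-fold) and lower in clone 3 (11.7-fold).

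Of 16 feedback and target genes outside the 10, promoter peaks were listed at 10, 10 and 8, with 8 in all 3 clones, near the shares of all genes given above (49.8%, 56.9% and 48.1%, and 46.5% in all 3). By mean percentile Myc, a target that drives growth, was the highest of these (32.3-fold, 70.6-fold and 9.77-fold). Sp8, a relative of Sp5, was the lowest (4.87-fold and 8.65-fold in clones 1 and 2). By fold, Znrf3 was higher than Myc in clone 1 (40.8-fold) and Ephb2 was higher in clone 3 (10.8-fold). A further 6 had no promoter peak in any clone: the inhibitors Nkd2, Dkk1 and Wif1, the receptor-directed ubiquitin ligase gene Rnf43, and Lgr5 and Ascl2, which mark stem cells. Of 5 catenins and partners 4, 4 and 3 had a peak, Ctnna1 being the highest (27.2-fold, 50.9-fold and 12.7-fold), Cdh3 the lowest (9.60-fold, 19.3-fold and 4.71-fold) and Cdh1, which encodes E-cadherin, having none. These lists were chosen with earlier results of the data known, and their shares were not tested against those of all genes.

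**Figure D4:**
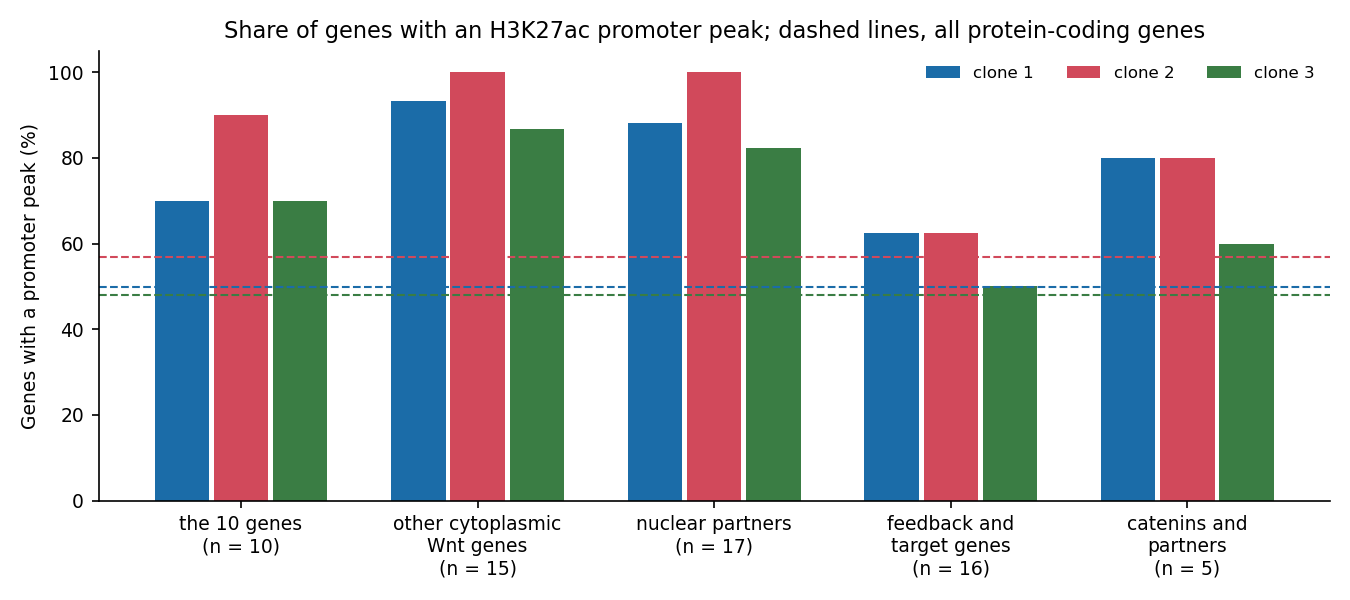
Share of genes with a promoter peak (%) in each clone for the 10 genes and 4 other lists of pathway genes, with dashed lines at the share of all protein-coding genes in the same clone. Bars of the cytoplasmic genes and nuclear partners are above 80% in every clone, whereas those of the feedback and target genes are closer to the dashed lines.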

How the data were processed

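H3K27ac and IgG ChIP-seq libraries of 3 tumour cell clones were grouped by their labels. The authors aligned reads to GRCm38 with Bowtie2. MACS2 2.1.1 stands in the submitters' processing notes, and there is 1 peak list per clone. Peak names show a WASP check, against allelic mapping bias, for clones 1 and 2 but not for clone 3. In the deposited lists, fold enrichment is the ratio of pileup to background, and p-value and q-value are given as −log10. The lists give no library totals, so depth is known at summits alone.

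Peaks outside the autosomes, X and Y (5, 21 and 3) were dropped. Genes and starts came from GENCODE M21, and coordinates count from 1. The strongest promoter peak was taken by p. To obtain the ChIP reads of a summit, the pileup that gives both its fold and its Poisson p was sought. Only whole numbers of reads were tried. A fit was found for 100% of peaks in each list, to within 0.00079 reads, and a second count was possible for 0.206%, 0.407% and 0.956%. On lists simulated from the solved reads with the same formulas, 100% of the reads were recovered in each of the 3 cases. That checks the solving step and cannot show that the deposited lists follow these formulas. Percentiles are within a list. Regions of different clones were merged where they shared 1 bp. Means and SDs are over clones, and no test was run. The software was Python 3.11.15 with its packages numpy (2.4.6), pandas (2.3.3) and scipy (1.17.1), and matplotlib (3.10.9) for plots.

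All 10 genes were described. Of the other lists, the genes with the highest and lowest mean percentile and those without a promoter peak were to be named. Of neighbours, those with a start in a joined domain were named. The lowest of the hair follicle and fibroblast lists, Lhx2 and Col1a2, were not named above. Krt14 and Krt15 were added after their values were seen, and Twist2, Prrx1, Ep300, Znrf3 and Ephb2 were also named outside this rule. Genes and lists were chosen with earlier results of these data known. The result of 1 list of marker genes is not reported here. The alternatives tried were a stricter q threshold, equal peak numbers, other promoter, distal and joining distances, coding starts alone, ranking by span and leaving out each clone. Upstream bases were read from the GRCm38.p6 genome, with starts from GENCODE and the RefSeq promoter table.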

Additional observations from a re-analysis of the deposited data

How the results depend on the processing

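The 7 genes with a promoter peak in all 3 clones were 7 under each of the 8 alternatives run for this count. The longer stretch under peaks at Tcf7l1 and Tcf7l2 than at Lef1 and Tcf7 kept its direction in every clone under the 8 run for it. Start-covering promoter peaks, coding starts, joining distances and span ranking were not run for that difference. Requiring a −log10 q of at least 5 lowered the body peaks per clone of the 10 genes from 17.3 to 8.67 and the distal peaks from 20.3 to 13.3. Equal peak numbers gave 11.0 body peaks. Within 50 kb there were 9 distal peaks, and with peaks at starts of other genes 41.7, which also raised the TCF difference from 4481 to 6269 bp. A promoter peak that must cover the start left 2 genes without one, Sp5 besides Lef1. Joining at 5 kb put Tcf7l2 in the top 5% in clone 1, a mean of 0.333 genes per clone. Leaving out a clone, the genes with no promoter peak numbered 1 to 3, body peaks 11.0 to 23.5 and distal peaks 11.0 to 26.0, with 3, 11.0 and 11.0 without clone 2. The other 59 of the values computed moved by less than 1.5 times or less than the SD between clones. With 1 condition no samples could be paired between conditions, and no result comes from a test. The TCF difference was taken within each clone. Depth limits all of this to summits of at least 13, 12 and 25 reads in clones 1, 2 and 3.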
